A study of Mus musculus with 26 samples.

Results

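Transcript clusters of mouse liver RNA, 10 in number, were chosen by their ratio of nuclear to cytoplasmic IP: far less of their RNA was immunoprecipitated (IP) with hnRNPK from nuclear than from cytoplasmic extract. They are 10 of the 31469 clusters in the deposited tables, and each is called here by its listed UCSC transcript: uc009mzi.1, uc007iyr.2, uc007kxt.1, uc008isn.1, uc008fye.1, uc009jrp.2, uc008fxp.1, uc007lnk.1, uc009mzj.1 and uc009nqk.1. A cluster is the set of isoforms that share a gene number in those tables, and its count is the sum over these isoforms. Since that ratio selected them, it is described below without a test.

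The study sequenced RNA held by an antibody against hnRNPK in nuclear and in cytoplasmic extracts of liver, beside total liver RNA, and its design asks how hnRNPK holds RNA in each compartment in lean and obese mice. Livers came from leptin-deficient mice of strain B6.V-Lepob/J fed a normal diet (ob/ob), from strain C57BL/6J fed a high-fat diet and from strain C57BL/6J fed a normal diet (wild type), with 2 units per mouse group in each of nuclear IP, cytoplasmic IP and total RNA. Control IgG beads gave 1 library per compartment, from mixed mice. Extracts had already passed over IgG beads before they met the hnRNPK beads, and the total RNA was not drawn from those extracts, so IP against total RNA takes in the fractionation too. The Lepob allele is carried by every cell of ob/ob mice, and the diet acts on the whole animal. Ages are not given in the labels, and neither is whether each replicate was its own animal. The p-values below therefore reflect no more than the scatter of these samples, which could be technical.

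hnRNPK, heterogeneous nuclear ribonucleoprotein K, is an RNA-binding protein with KH domains that prefers stretches rich in cytosine. It shuttles between nucleus and cytoplasm, and is known for roles in transcription and splicing in the nucleus and in the stability and translation of messenger RNAs in the cytoplasm. A precipitation of this kind recovers RNA bound directly as well as RNA that comes along with other parts of the same particle.

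No table used here pairs these identifiers with a gene symbol, a position or a sequence, so the roles of the members and their genomic neighbours by coordinate were not analysed here, and the labelled tissue was not checked against liver markers. What the tables do give is the length and number of isoforms. The listed transcripts ran from 229 nt (uc009mzj.1) to 2661 nt (uc007iyr.2), and all 10 were shorter than 2734 nt, the median length of the most counted isoform over the 13516 clusters tested. Their median was 1165.5 nt. The 5 shortest, uc009mzj.1 at 229 nt, uc009nqk.1 at 482 nt, uc008isn.1 at 669 nt, uc008fxp.1 at 753 nt and uc007kxt.1 at 759 nt, were under 800 nt, a length that 5.07% of tested clusters fell below. The part of length in the ratio of the IPs was not tested.

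Depth ran from 5336060 to 10581089 counts per nuclear IP library, from 8834063 to 12068891 per cytoplasmic IP library and from 25597307 to 41731910 per total RNA library, and the 2 libraries of a total RNA unit were summed. The nuclear IgG library held 3116786 counts and the cytoplasmic IgG library 338469. Levels below are CPM, counts scaled to library size, after TMM scaling, which corrects library size for RNAs that take up much of a library. The second high-fat diet replicate stood apart from the rest of its fraction in this correction, with factors of 0.616 in nuclear IP and 0.656 in cytoplasmic IP. All 10 clusters passed the filter on low counts over the 18 units, and 8 had counts in total RNA.

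The most abundant member was uc009mzi.1, a single-isoform cluster of 2345 nt. In nuclear IP it had 153 and 130 CPM in ob/ob, 128 and 138 CPM on high-fat diet and 141 and 139 CPM in wild type. In cytoplasmic IP it had 1233 and 1117 CPM in ob/ob, 1024 and 1028 CPM on high-fat diet and 1056 and 950 CPM in wild type. Total RNA held 377 and 368 CPM in ob/ob, 488 and 496 CPM on high-fat diet and 500 and 525 CPM in wild type. The fractions did not overlap in any mouse group: every nuclear unit lay below every total RNA unit, and every cytoplasmic unit above.

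Cluster uc007iyr.2, the longest member, had 48.8 and 45.3 CPM in ob/ob nuclear IP, 24.4 and 31.0 CPM in high-fat diet nuclear IP and 29.7 and 28.3 CPM in wild-type nuclear IP. Its cytoplasmic IP values were 368 and 333 CPM in ob/ob, 233 and 218 CPM on high-fat diet and 212 and 215 CPM in wild type. In total RNA it had 140 and 134 CPM in ob/ob, 121 and 119 CPM on high-fat diet and 120 and 119 CPM in wild type. This member separated ob/ob from the other mouse groups in all fractions, with no overlap between the units.

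Cluster uc007kxt.1 had 17.5 and 12.8 CPM in ob/ob nuclear IP, 11 and 13.7 CPM in high-fat diet nuclear IP and 11.1 and 5.34 CPM in wild-type nuclear IP. In cytoplasmic IP the ob/ob units had 475 and 457 CPM, the high-fat diet units 507 and 502 CPM and the wild-type units 354 and 331 CPM. Total RNA gave 203 and 180 CPM in ob/ob, 186 and 184 CPM on high-fat diet and 192 and 194 CPM in wild type. Both wild-type units were thus below all ob/ob and high-fat diet units in cytoplasmic IP, while in total RNA the mouse groups overlapped.

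Cluster uc008isn.1 had the widest gap between the IPs among the 8 members with nuclear counts. Its nuclear IP values were 13.4 and 7.39 CPM in ob/ob, 8.08 and 12.8 CPM on high-fat diet and 6.12 and 3.56 CPM in wild type. Cytoplasmic IP held 376 and 343 CPM in ob/ob, 359 and 426 CPM on high-fat diet and 247 and 267 CPM in wild type. Total RNA held 67.7 and 60.3 CPM in ob/ob, 68.5 and 68.1 CPM on high-fat diet and 71.0 and 81.0 CPM in wild type. Wild type was the lowest mouse group in both IPs and held the highest values in total RNA.

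Cluster uc008fye.1 had 13.7 and 13 CPM in ob/ob nuclear IP, 19.6 and 19.5 CPM in high-fat diet nuclear IP and 12 and 12.2 CPM in wild-type nuclear IP. Cytoplasmic IP gave 174 and 172 CPM in ob/ob, 182 and 197 CPM on high-fat diet and 130 and 143 CPM in wild type. In total RNA the values were 135 and 119 CPM in ob/ob, 131 and 132 CPM on high-fat diet and 129 and 157 CPM in wild type. Here the cytoplasmic IP and total RNA overlapped, with 4 of 6 cytoplasmic units above the highest total RNA unit and both wild-type cytoplasmic units below it.

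Cluster uc009jrp.2 ranged from 8.18 to 11 CPM in nuclear IP (median 9.32), from 110 to 147 CPM in cytoplasmic IP (median 114) and from 54.6 to 75.5 CPM in total RNA (median 68.7). Cluster uc008fxp.1 ranged from 2.13 to 3.57 CPM in nuclear IP (median 2.68), from 64.7 to 99.1 CPM in cytoplasmic IP (median 95.8) and from 41.4 to 63.9 CPM in total RNA (median 46.2). Cluster uc007lnk.1 ranged from 1.35 to 3.39 CPM in nuclear IP (median 1.92), from 44 to 66.6 CPM in cytoplasmic IP (median 51.5) and from 16.3 to 25.1 CPM in total RNA (median 21.1). In these 3 members the fractions did not overlap, and nuclear counts were few, with 113 summed over 6 units for uc008fxp.1 and 86 for uc007lnk.1.

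The 2 shortest members were counted in cytoplasmic IP alone among the 3 fractions. Cluster uc009mzj.1 had 62.5 and 55.9 CPM in ob/ob cytoplasmic IP, 39.6 and 38.7 CPM on high-fat diet and 30.9 and 48.9 CPM in wild type. Cluster uc009nqk.1 had 31.2 and 30.4 CPM in ob/ob cytoplasmic IP, 19.7 and 10.8 CPM on high-fat diet and 28.6 and 3.58 CPM in wild type. Both were listed at 0 in all 6 nuclear IP units and all 6 total RNA units, and uc009nqk.1 spread widely between the replicates of wild type.

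**Figure D1:**
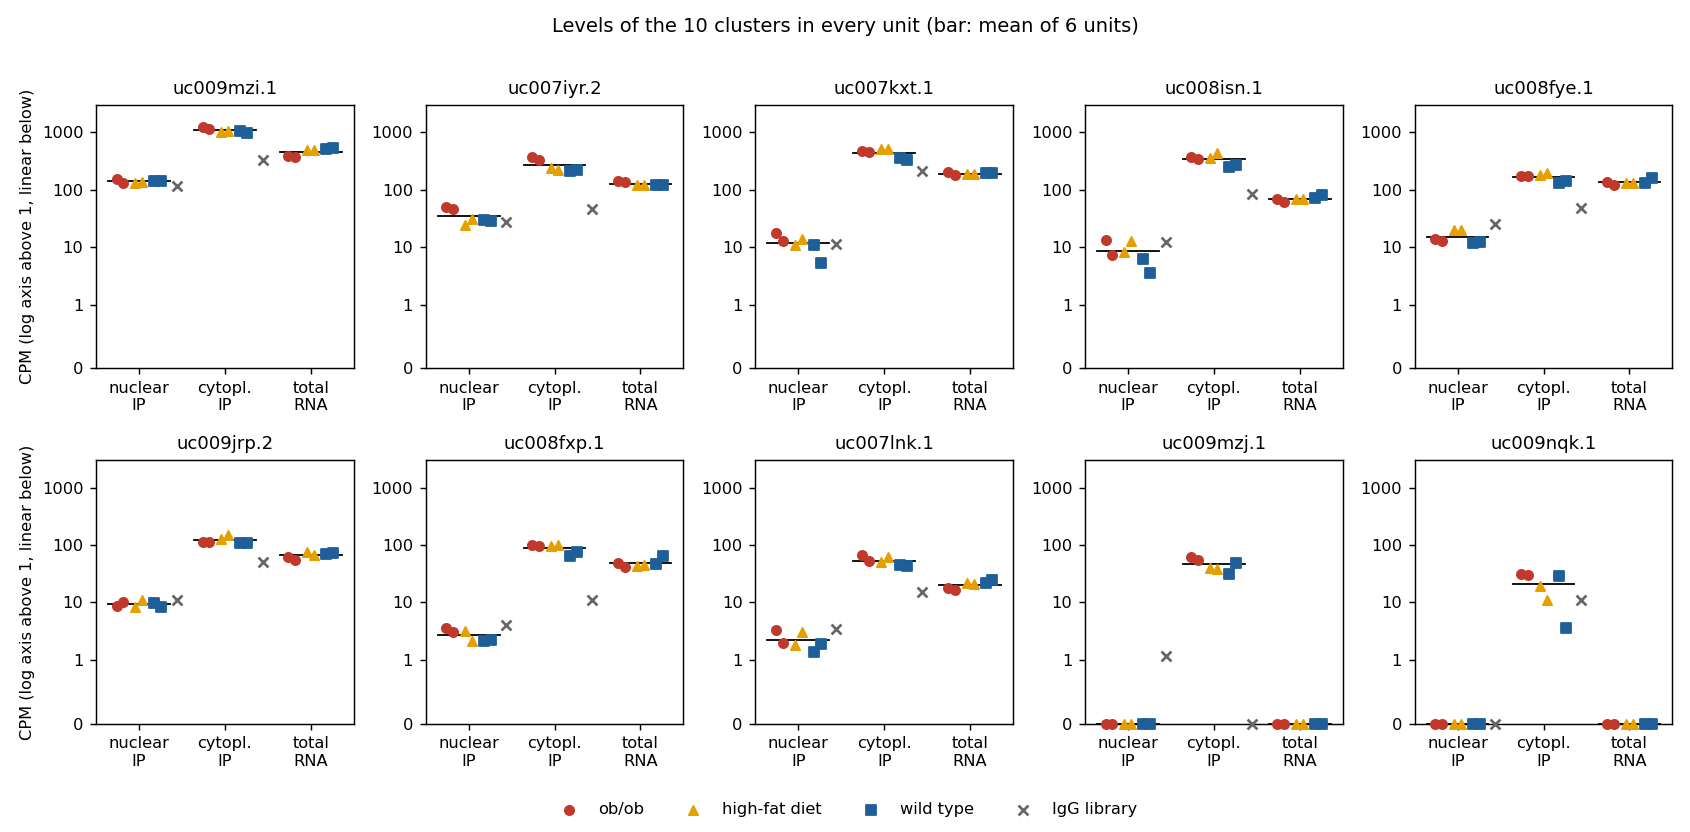
TMM-scaled CPM of the 10 clusters in nuclear IP, cytoplasmic IP and total RNA, 1 panel per cluster; points are single units coloured by mouse group, bars are the mean of 6 units, crosses are the single IgG library of that compartment, and the axis is logarithmic above 1 and linear below. In every panel the cytoplasmic IP units lie above the nuclear IP units, and uc009mzj.1 and uc009nqk.1 sit at 0 in nuclear IP and total RNA.

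Averaged over the 3 mouse groups, nuclear over cytoplasmic IP on the log2 scale was -5.37 ± 0.17 (SE) for uc008isn.1, the 34th lowest of 13516 clusters, -5.22 ± 0.16 for uc007kxt.1 and -5.00 ± 0.13 for uc008fxp.1. It was -4.64 ± 0.15 for uc007lnk.1, -3.68 ± 0.10 for uc009jrp.2 and -3.49 ± 0.09 for uc008fye.1. The smallest gaps were -2.94 ± 0.08 for uc007iyr.2 and -2.94 ± 0.09 for uc009mzi.1, the 329th and 326th lowest. The median of all 13516 clusters was -0.04. These values chose the members. All 10 had every nuclear unit below every cytoplasmic unit, as had 18.5% of tested clusters, and nothing is read from that count.

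For the 2 members without nuclear counts a bound was taken against a floor of 3 counts summed over the 6 units, on the scale of library size. Cluster uc009mzj.1, with 2425 cytoplasmic and 0 nuclear counts, was at least 586-fold lower in nuclear IP. Cluster uc009nqk.1, with 1129 cytoplasmic and 0 nuclear counts, was at least 273-fold lower. Leaving out any single cytoplasmic unit gave bounds of 523-fold to 626-fold for uc009mzj.1 and 236-fold to 315-fold for uc009nqk.1. Against the 0 counts in total RNA, cytoplasmic IP was at least 5860-fold higher for uc009mzj.1 and at least 2728-fold higher for uc009nqk.1. The floors cover counting error only, and an estimated count of 0 also depends on how RSEM divides reads between similar transcripts.

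Set against total RNA with TMM scaling, the 8 members with counts in all fractions lay below it in nuclear IP and above it in cytoplasmic IP. Nuclear IP over total RNA was lowest for uc008fxp.1, at -4.13 ± 0.13 (log2, SE), and uc007kxt.1, at -4.04 ± 0.15. It was -3.25 ± 0.15 for uc007lnk.1, -3.18 ± 0.09 for uc008fye.1 and -3.11 ± 0.16 for uc008isn.1. The values nearest 0 were -2.83 ± 0.09 for uc009jrp.2, -1.90 ± 0.08 for uc007iyr.2 and -1.71 ± 0.09 for uc009mzi.1, against a median of -0.18 over all tested clusters. Every nuclear unit lay below every total RNA unit in 8 of the 10 members, the other two being at 0 in both, and in 28.8% of tested clusters.

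Cytoplasmic IP over total RNA was highest for uc008isn.1, at 2.26 ± 0.14 (log2, SE), a 4.79-fold difference. It was 1.39 ± 0.11 for uc007lnk.1, 1.23 ± 0.09 for uc009mzi.1, 1.19 ± 0.13 for uc007kxt.1 and 1.04 ± 0.07 for uc007iyr.2. It was below 1 for uc008fxp.1 (0.87 ± 0.09), uc009jrp.2 (0.84 ± 0.08) and uc008fye.1 (0.31 ± 0.08), with a median of -0.11 over all tested clusters. Both IPs enter the choice of members, so these ratios, and the number of members with all nuclear units below total RNA, are descriptions as well. The gap between the IPs was split at total RNA, on the log2 scale with TMM scaling. The stretch from nuclear IP to total RNA made up 57.9% in uc008isn.1 and 58.1% in uc009mzi.1. It made up 91.2% in uc008fye.1, whose cytoplasmic IP and total RNA lay closest together. This split depends on the scaling: by library size, cytoplasmic IP over total RNA was 1.75 for uc008isn.1 and -0.20 for uc008fye.1.

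**Figure D2:**
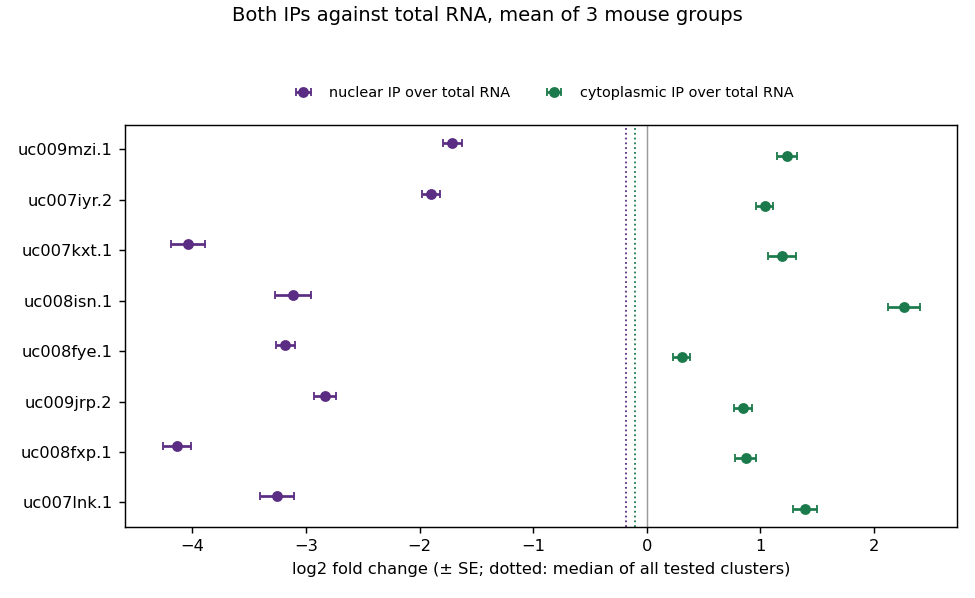
Log2 fold change of nuclear IP over total RNA and of cytoplasmic IP over total RNA for the 8 members with counts in all fractions, averaged over 3 mouse groups; bars are the SE and dotted lines the medians of all 13516 tested clusters (-0.18 and -0.11). Nuclear values run from -4.13 to -1.71 and cytoplasmic values from 0.31 to 2.26 with TMM scaling; by library size uc008fye.1 turns to -0.20.

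Whether cytoplasmic IP exceeded total RNA depended on the scale. With TMM scaling every cytoplasmic unit was above every total RNA unit in 9 of 10 members, against 25.1% of tested clusters. On CPM by library size this held in 6 of 10, against 13.9%, and on the TPM the authors deposited, in 4 of 10, against 11.5%. The 4 were uc008isn.1, uc007lnk.1, uc009mzj.1 and uc009nqk.1. Clusters uc009mzj.1 and uc009nqk.1, at 0 in nuclear IP and total RNA, passed the filter on low counts through cytoplasmic IP alone. Cytoplasmic IP also took part in choosing the members, so nothing is read from these counts beside the shares. By library size the median of all clusters lay at -0.62, and the ratios were 1.75 for uc008isn.1, 0.88 for uc007lnk.1, 0.72 for uc009mzi.1, 0.68 for uc007kxt.1, 0.53 for uc007iyr.2, 0.36 for uc008fxp.1 and 0.33 for uc009jrp.2. Cluster uc008fye.1 turned to -0.20. By contrast, every nuclear unit was below every cytoplasmic unit in all 10 members on all 3 scales.

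TPM, which divides by length, allows levels to be set between members. In cytoplasmic IP the highest TPM was 851 ± 154 for uc007kxt.1 (SD, n = 6), followed by 646 ± 110 for uc008isn.1, 550 ± 98 for uc009mzi.1 and 329 ± 94.8 for uc009mzj.1. Neighbours in this order overlapped in their ranges. Within each unit, though, uc007kxt.1 was above uc008isn.1, and uc009mzi.1 was above uc009mzj.1. Only uc008isn.1 and uc009mzi.1 changed places, in wild-type replicate 1 (556 and 623 TPM). The lowest were 60.7 ± 36.8 TPM for uc009nqk.1 and 40.3 ± 7.70 TPM for uc007lnk.1. Cluster uc008fye.1 had 104.63 to 147.03 TPM in cytoplasmic IP, against 167.55 to 182.07 TPM in total RNA, so on this scale all of its cytoplasmic units lay below all total RNA units.

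IgG beads held part of the same pattern. Of the 8 members with at least 20 counts over both IgG libraries, all 8 were lower in nuclear IgG than in cytoplasmic IgG, as were 38% of the 9333 clusters with that many counts. Nuclear IgG was below 50% of cytoplasmic IgG in 6 of the 8, against 10.2%. The cut of 20 was on raw counts, and the nuclear IgG library was deeper (3116786 against 338469 counts). Clusters therefore reached the cut more easily through nuclear IgG, which bears on both shares. It left out uc009mzj.1, with 5 nuclear and 0 cytoplasmic IgG counts, and uc009nqk.1, with 0 and 5. Cluster uc007kxt.1 had 49 counts in nuclear IgG and 98 counts in cytoplasmic IgG, or 11.5 and 213 CPM, a ratio of 0.0539 (exact 95% interval 0.0375 to 0.0768). For uc008isn.1 the counts were 52 in nuclear IgG and 38 in cytoplasmic IgG, or 12.2 and 82.4 CPM, a ratio of 0.148 (0.0953 to 0.231). The ratio was 0.359 (0.298 to 0.434) for uc009mzi.1, with 492 counts in nuclear IgG and 148 in cytoplasmic IgG. For each of these 3 the interval excluded 1, and so it did for uc009jrp.2, uc008fye.1 and uc007lnk.1, while that of uc007iyr.2 (0.376 to 1.01) and uc008fxp.1 (0.130 to 1.27) included it. The intervals cover counting error only, with 1 library per compartment.

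Both IPs took part in choosing the members, so counts of IP units above or below IgG are descriptions, and nothing is read from them. Cytoplasmic IP exceeded its IgG library in all 6 units for 9 members, against 46% of tested clusters. In uc009nqk.1 it did so in 4 of 6 units, with 10.8 CPM in IgG from 5 counts. With TMM scaling cytoplasmic IP averaged 8.15 times the IgG level for uc008fxp.1, 5.78 times for uc007iyr.2 and 2.06 times for uc007kxt.1. By library size the number of members was 8, because uc007kxt.1 was above IgG in 5 of 6 units, and its multiple was 1.26. The share over all clusters was not taken on that scale. In the nucleus the order turned for some members. With TMM scaling all 6 nuclear IP units were below the nuclear IgG library for 5 members, against 22.3% of tested clusters. By library size this held for 7 members, and no share over all clusters was taken there. With TMM scaling uc007iyr.2 was above nuclear IgG in 5 of 6 units (1.26 times on average). Cluster uc007kxt.1 was above it in 3 of 6 (1.04 times) and uc008isn.1 in 2 of 6 (0.70 times). Cluster uc009nqk.1 was at 0 in nuclear IP and nuclear IgG. Only uc009mzi.1 had all 6 nuclear IP units above nuclear IgG with TMM scaling, and none of them by library size. Cluster uc009mzj.1 had 5 counts in nuclear IgG and none in cytoplasmic IgG, although it was listed at 0 in nuclear IP. The part of binding to IgG beads in the ratios of the IPs was not tested.

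**Figure D3:**
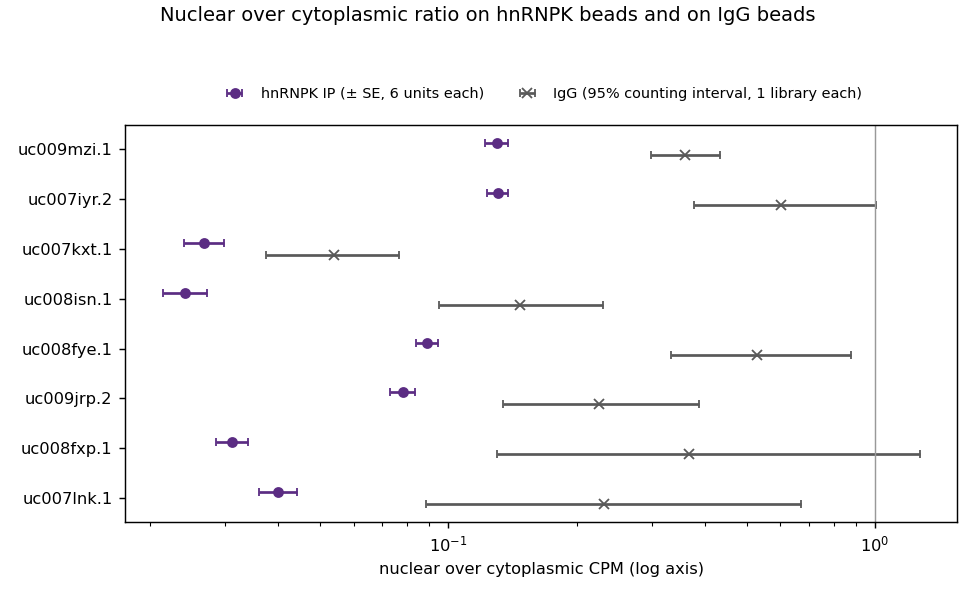
Nuclear over cytoplasmic ratio of TMM-scaled CPM on hnRNPK beads (circles, fitted mean of 6 units each ± SE) and on IgG beads (crosses, 1 library each, exact 95% counting interval) for the 8 members with at least 20 IgG counts; the axis is logarithmic and the vertical line marks equal levels. All 8 IgG ratios are below 1 and all lie to the right of the IP ratio of the same cluster, with uc007kxt.1 closest at 0.0267 in IP and 0.0539 in IgG.

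Isoforms within a cluster did not all follow the cluster sum. In all, 6 members have a single isoform, and 4 have several, to which RSEM assigns shared reads by estimation. In the cluster of uc007kxt.1, the listed 759-nt isoform held 0% to 53.6% of the counts in nuclear IP (mean 22.8% ± 19.7, SD, n = 6), 15.5% to 31.1% in cytoplasmic IP (23.8% ± 6.04) and 68.2% to 71.4% in total RNA (69.9% ± 1.32). The 641-nt isoform uc007kxs.1 held the rest. Against total RNA this share fell by 47.2 percentage points in nuclear IP and fell by 46.1 percentage points in cytoplasmic IP, without overlap. Each gave the smallest p that a two-sided exact permutation test of 6 against 6 units allows, 0.00216, or 0.00866 adjusted over 12 tests. Both IPs took part in choosing the members, so these p-values are descriptions. The nuclear shares rest on 45 to 123 counts per unit. Nuclear and cytoplasmic IP did not differ beyond their spread (exact p = 0.907). The listed isoform held 0 of 49 counts in nuclear IgG (exact 95% interval 0% to 7.25%). It held 68 of 98 in cytoplasmic IgG, 69.4% (59.3% to 78.3%), which overlaps the share in total RNA and lies above every cytoplasmic IP unit. Each is 1 library, and the intervals leave out the error in how RSEM divides reads.

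In the cluster of uc008fxp.1 the listed 753-nt isoform held 38.3% to 100% of counts in nuclear IP, 95.6% to 100% in cytoplasmic IP and 85.5% to 89.7% in total RNA. The share in cytoplasmic IP, 98.4% ± 1.46, was higher than the 87.8% ± 1.54 in total RNA (SD, n = 6 each; exact permutation p = 0.00216, adjusted p = 0.00866). Both IPs took part in choosing the members, so this comparison and those of the nuclear shares are descriptions. The isoform that made up most of the remainder was uc008fxn.1 of 963 nt, with 10.8% of total RNA counts and 1.37% of cytoplasmic IP counts. Nuclear shares rest on few counts, as given above, and did not pass against either fraction. Nuclear minus cytoplasmic IP was -23.0 percentage points (exact permutation p = 0.0606, 0.182 adjusted), and -27.9 points without replicate 2 of ob/ob or of wild type in nuclear IP (exact p = 0.0303, 0.0909 and 0.0727 adjusted).

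The cluster of uc007iyr.2 holds 3 isoforms: uc007iyr.2 and uc007iys.2, of 2661 and 2643 nt, and uc007iyt.2 of 2136 nt, which had 1.29% of total RNA counts. The listed isoform took 0%, 0%, 0%, 47.0%, 60.8% and 99.5% of counts in the 6 nuclear IP units, 20.5% to 66.1% in cytoplasmic IP and 55.0% to 60.2% in total RNA. The wild-type nuclear units alone stood at 0% and 99.5%, although their cluster sums were 29.7 and 28.3 CPM. Against total RNA the nuclear share differed by -23.0 percentage points (exact permutation p = 0.136, 0.327 adjusted), and by -36.0 points without wild-type replicate 2 in nuclear IP (exact p = 0.0303, 0.0727 adjusted). No comparison of these shares passed, and the level of this cluster is therefore given only as a sum. In the cluster of uc009jrp.2 the listed isoform held at least 89.6% of the counts in every unit, and no comparison passed. In nuclear IgG, 9 of 48 estimated counts were on that isoform, 18.8% (exact 95% interval 8.95% to 32.6%), and most of the others on uc009jrq.2 of 1777 nt. This is 1 library, and the interval leaves out the error in how RSEM divides reads. Of the 12 comparisons of shares, 3 passed, and all 12 are descriptions because both IPs took part in choosing the members.

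**Figure D4:**
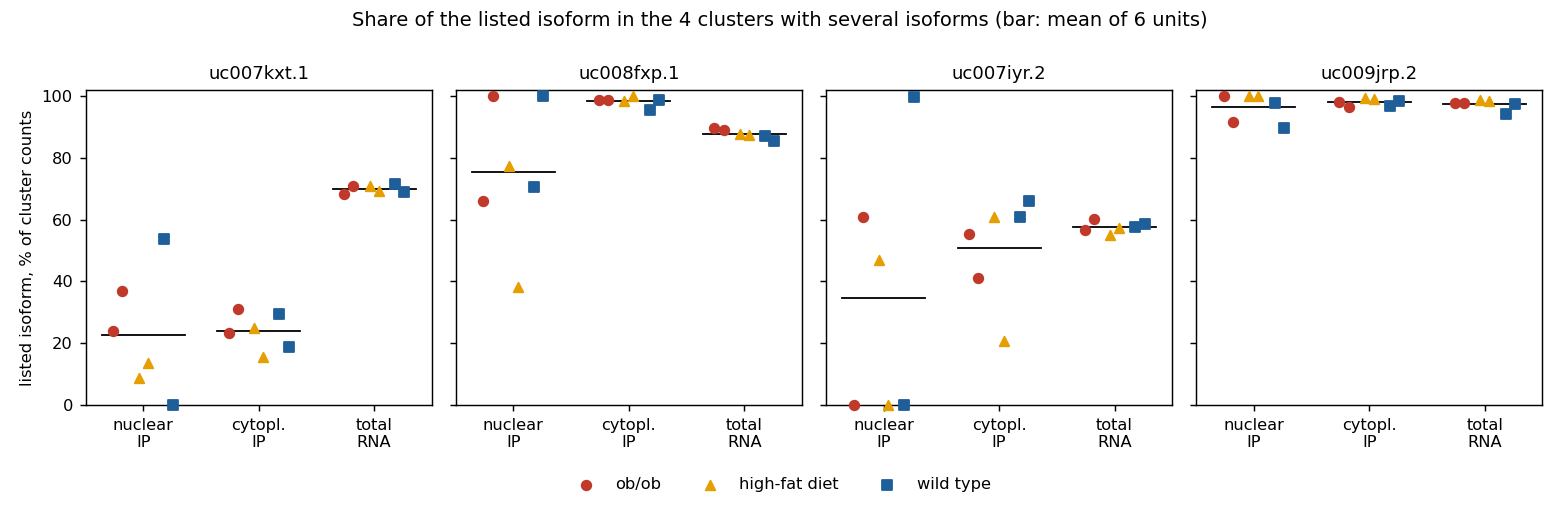
Share of cluster counts assigned to the listed isoform, in percent, in nuclear IP, cytoplasmic IP and total RNA for the 4 clusters with several isoforms; points are single units coloured by mouse group and bars are the mean of 6 units. The uc007kxt.1 share is below 54% in all IP units and near 70% in total RNA, and the uc007iyr.2 share runs from 0% to 99.5% in nuclear IP.

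Mouse groups were compared within each fraction, where the choice of members had averaged them. In total RNA none of the 8 members with counts passed the edgeR test for ob/ob against wild type, where 1.58% of 15487 clusters passed. At an unadjusted edgeR p under 0.05 were 3 members and 26.9% of clusters. Of these 3 members, 2 were lower in ob/ob, with adjusted p above the threshold of 0.05. Cluster uc007lnk.1 had 17.7 and 16.3 CPM in ob/ob against 21.6 and 25.1 CPM in wild type (log2 -0.38 ± 0.09, edgeR adjusted p = 0.080). The other was uc009mzi.1, described above (-0.38 ± 0.10, edgeR adjusted p = 0.094). Neither pair of groups overlapped. Without wild-type replicate 1, uc007lnk.1 passed (-0.46, edgeR adjusted p = 0.027). Cluster uc007iyr.2 had 0.27 ± 0.08 (edgeR adjusted p = 0.118). In bulk liver, fewer cells of a type and less RNA per cell cannot be told apart.

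For high-fat diet against wild type in total RNA, edgeR called none of the 8 and 0% of 15487 clusters, with 1527 clusters and none of the 8 at an unadjusted p under 0.05; DESeq2 also called none of the 8, and 2.07% of clusters. The log2 fold changes of the members ran from -0.28 to 0.04. For ob/ob against high-fat diet none passed in edgeR, where 0.491% of clusters did, and 4 members and 21.9% of clusters had an unadjusted p under 0.05. Cluster uc009mzi.1 had -0.36 ± 0.10 (edgeR adjusted p = 0.136).

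In cytoplasmic IP, uc007iyr.2 was the member that rose in ob/ob against wild type, with 368 and 333 CPM in ob/ob against 212 and 215 CPM in wild type. Its log2 fold change was 0.65 ± 0.13, or 1.57-fold (edgeR adjusted p = 0.0064). It was 1 of 10 members called, where 12.8% of 13516 clusters were called, and 5.94% were called higher. It stayed called without any one of the 4 units (edgeR adjusted p 0.026 to 0.033). The other 9 had log2 fold changes of -0.01 for uc009jrp.2 to 0.87 for uc009nqk.1, none past the threshold, with a median of -0.03 over all clusters. For uc009nqk.1 the result rested on wild-type replicate 1: with it, the log2 fold change was 0.87 ± 0.70 (edgeR adjusted p = 0.471), and without it 3.05 (edgeR adjusted p = 0.012).

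High-fat diet against wild type in cytoplasmic IP gave no call among the 10, against 1.85% of clusters, with 4 members and 19.2% of clusters at an unadjusted p under 0.05, and with 2 members called by DESeq2, which called 8.09% of clusters. These 2 were uc008fye.1, at 0.42 ± 0.13 in edgeR (adjusted p = 0.102), and uc007kxt.1, at 0.51 ± 0.22 (edgeR adjusted p = 0.218). In both, the high-fat diet units lay above the wild-type units. Against high-fat diet, ob/ob was higher in uc007iyr.2 (0.62 ± 0.13, 1.54-fold, edgeR adjusted p = 0.017), 1 of 10 members where 3.57% of clusters were called and 1.6% called higher. That call was lost without any one of the 4 units (log2 0.54 to 0.67, edgeR adjusted p 0.076 to 0.129) and by library size (log2 0.81, edgeR adjusted p = 0.074).

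The ratio of cytoplasmic IP to total RNA was then compared between mouse groups by an interaction term. None of the members passed for ob/ob against wild type or for high-fat diet against wild type, where 0.0074% of clusters passed in each. For ob/ob against wild type the differences in log2 ratio ran from 0.25 ± 0.20 for uc009jrp.2 to 0.77 ± 0.26 for uc007lnk.1 among the 8 members with total RNA counts, with 5 at an unadjusted p under 0.05 in edgeR, as were 12.3% of clusters. For high-fat diet against wild type they ran from 0.02 ± 0.18 for uc007iyr.2 to 0.73 ± 0.23 for uc008fxp.1, with 3 at an unadjusted p under 0.05, as were 9.88% of clusters. The 2 comparisons share the wild-type units, and cytoplasmic IP took part in choosing the members. Nothing is read from these counts of members beside the shares. DESeq2 called 3 members for ob/ob, uc007iyr.2, uc007lnk.1 and uc009mzi.1, where it called 2.96% of clusters, and none for high-fat diet, where it called 1.72%. The ratio for uc007iyr.2 was 1.31 ± 0.13 in ob/ob, 0.92 ± 0.13 on high-fat diet and 0.89 ± 0.13 in wild type. For uc008fye.1 it was 0.40 ± 0.13 in ob/ob, 0.53 ± 0.13 on high-fat diet and -0.01 ± 0.13 in wild type. With TMM scaling the cytoplasmic IP of this cluster was thus level with total RNA in wild type. By library size it was lower there, at 110 and 119 CPM against 151 and 163 CPM in total RNA.

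In nuclear IP, a comparison added after the values had been seen, 3 of the 8 members with counts rose in ob/ob against wild type, where 13.7% of 13516 clusters were called and 5.5% called higher. They were uc007iyr.2 (0.67 ± 0.14, edgeR adjusted p = 0.0068), uc008isn.1 (1.03 ± 0.30, edgeR adjusted p = 0.034) and uc007kxt.1 (0.83 ± 0.26, edgeR adjusted p = 0.045). The values of uc008isn.1 were 13.4 and 7.39 CPM in ob/ob against 6.12 and 3.56 CPM in wild type, and those of uc007kxt.1 were 17.5 and 12.8 CPM against 11.1 and 5.34 CPM. Neither overlapped, but the replicates of a group stood far apart. Cluster uc008isn.1 lost its call without ob/ob replicate 1 (0.54, edgeR adjusted p = 0.262) or wild-type replicate 2 (0.72, edgeR adjusted p = 0.201). Cluster uc007kxt.1 lost its call without ob/ob replicate 1 (0.58), ob/ob replicate 2 (1.06) or wild-type replicate 2 (0.42), with edgeR adjusted p of 0.217, 0.071 and 0.261 in that order. By library size uc008isn.1 was the member still called, while uc007iyr.2 had 0.75 (edgeR adjusted p = 0.073) and uc007kxt.1 had 0.90 (edgeR adjusted p = 0.109).

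High-fat diet against wild type in nuclear IP gave 1 call, uc008fye.1, with 19.6 and 19.5 CPM on high-fat diet against 12 and 12.2 CPM in wild type (0.68 ± 0.15, 1.60-fold, edgeR adjusted p = 0.026), where 5.37% of clusters were called and 2.23% called higher. It was lost without any one of the 4 units (edgeR adjusted p 0.075 to 0.126) and by library size, where it fell to 0.29 while the median of all clusters moved to -0.45. Cluster uc008isn.1 had 1.03 ± 0.31 (edgeR adjusted p = 0.067), and it passed without wild-type replicate 1 (1.52, edgeR adjusted p = 0.0498), as did uc007kxt.1 (1.21, edgeR adjusted p = 0.031). For ob/ob against high-fat diet, uc007iyr.2 was called (0.77 ± 0.14, 1.70-fold, edgeR adjusted p = 0.012), where 3% of clusters were and 1.18% were called higher. That call was lost without ob/ob replicate 1 (edgeR adjusted p = 0.053) or high-fat diet replicate 1 (0.129). With TMM scaling and all units, uc007iyr.2 was thus called higher in ob/ob against both other mouse groups in both IPs. Its total RNA units did not overlap either, and did not pass in edgeR, while DESeq2 called it higher in ob/ob against wild type (0.26, DESeq2 adjusted p = 0.026).

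**Figure D5:**
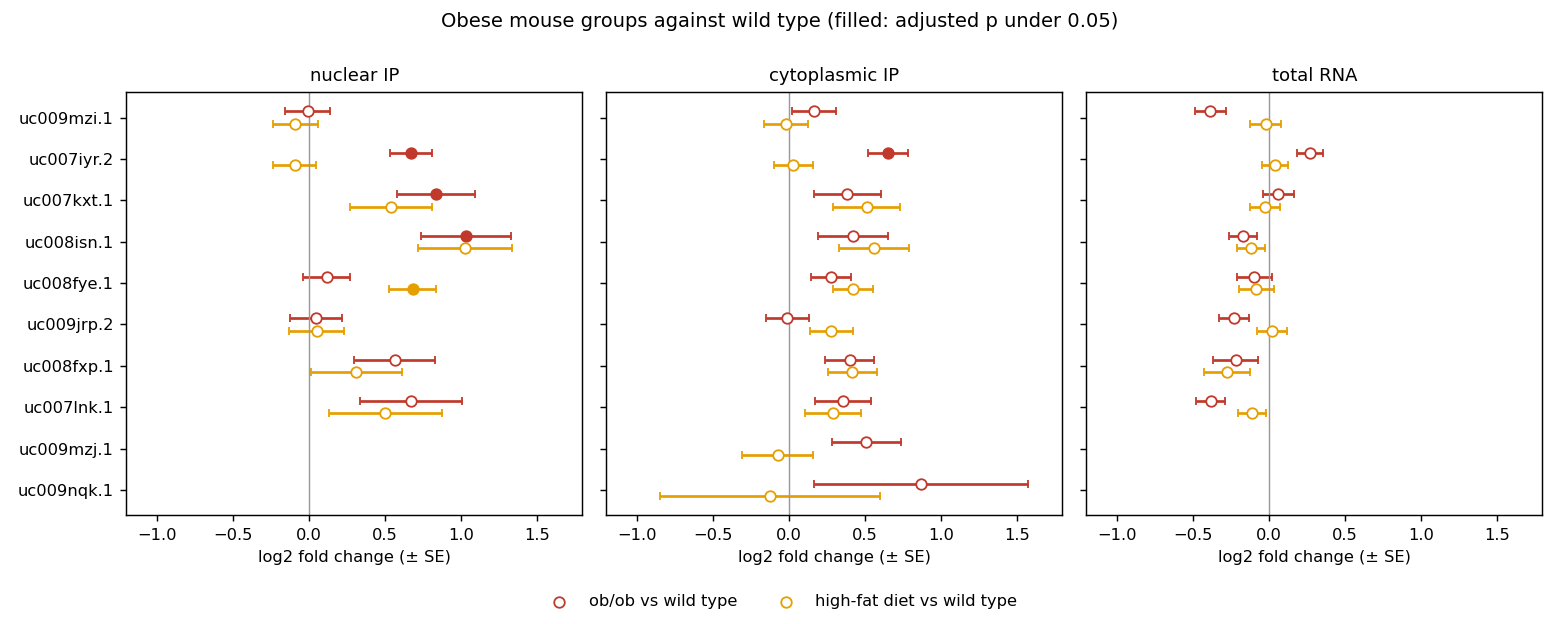
Log2 fold change (± SE) of ob/ob and of high-fat diet over wild type for each member in nuclear IP, cytoplasmic IP and total RNA, with filled points for an edgeR adjusted p under 0.05; members at 0 in a fraction have no point. Filled points are uc007iyr.2 in both IPs and uc007kxt.1 and uc008isn.1 in nuclear IP for ob/ob, and uc008fye.1 in nuclear IP for high-fat diet; total RNA has none.

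Cluster numbers run in the order of the deposited tables, and the clusters 1 number before or after a member were read as a local comparison. Of 18 such clusters that are not members, 15 were tested, and nuclear over cytoplasmic IP was negative in 10 and positive in 5, with a median of -0.56 on the log2 scale. Next to uc008fxp.1, cluster uc008fxm.2 had 19.2 ± 9.34 CPM in nuclear IP and 8.79 ± 2.41 CPM in cytoplasmic IP (SD, n = 6), a log2 ratio of 1.06. Next to uc007kxt.1, cluster uc007kxo.2 had 18.4 ± 2.28 CPM in nuclear IP and 9.03 ± 2.47 CPM in cytoplasmic IP, a ratio of 1.07. Next to uc008fye.1, cluster uc008fyf.1 of 744 nt, singled out after its values were seen, had 286 ± 99.7 CPM in nuclear IP, 2565 ± 749 CPM in cytoplasmic IP and 308 ± 59.0 CPM in total RNA, a nuclear over cytoplasmic ratio of -3.20. On its other side, uc008fyd.1, also named after its values were seen, had 1.57 ± 0.543 CPM in nuclear IP and 0.426 ± 0.315 CPM in cytoplasmic IP, a ratio of 2.13. Neighbours thus went both ways.

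Members uc009mzi.1 and uc009mzj.1 have adjacent numbers, 27829 and 27830. The count of uc009mzj.1 was 2.93% to 5.15% of that of uc009mzi.1 in the 6 cytoplasmic IP units, and it was 0 in total RNA, where uc009mzi.1 had 240697 counts. Whether the transcripts overlap was not analysed here. The non-member whose log2 levels were most like the mean pattern of the members across the 18 units was uc008ayo.2, of 1430 nt, with Pearson's r of 0.994. It had 6.59 ± 1.41 CPM in nuclear IP, 72.8 ± 11.8 CPM in cytoplasmic IP and 20.8 ± 1.38 CPM in total RNA (SD, n = 6). The 18 units share their libraries between both clusters, and r mainly follows the 3 fractions, so it is given as a description.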

How the data were processed

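Members and lists were chosen with earlier results of these data known. The authors deposited 1 table of transcripts per library (26 tables, 59121 transcripts), with estimated counts (RSEM expected counts), TPM and transcript length, per the file headers. The submitters' processing notes name RSEM 1.2.8, Bowtie2 2.1.0, TopHat2 2.0.10, SAMtools, bcl2fastq and build mm10, without role or order, and strandedness is not stated in them. TPM deposited by the authors was used for levels between clusters, and as a further scale for whether the units of the fractions overlapped. Because it keeps no depth, it was not used in the tests between mouse groups. Because RSEM splits shared reads by estimation, isoform shares and clusters that overlap, on either strand, are uncertain.

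For each cluster the expected counts were added up and rounded. Total RNA had 2 libraries per replicate number, which were taken as runs of one RNA and summed, giving 18 units; the labels do not say so. The IgG libraries are IgG by title but hnRNPK-bound by their molecule type label; the title was used. Tests between mouse groups used edgeR 4.0.16 (quasi-likelihood; R 4.3.3), TMM scaling, filterByExpr and Benjamini-Hochberg adjustment over all clusters tested, at a threshold of 0.05, with total RNA fitted on its 6 units and IPs on all 18. The SE was derived from the test, as |log2 fold change| over the root of F. CPM were TMM-scaled over 18 units and 2 IgG libraries, and means over mouse groups weigh the 3 groups equally. Isoform shares were compared by two-sided exact permutation tests over units (scipy 1.17.1), added after the values were seen, as were the nuclear IP tests between mouse groups. The steps were tested on simulated counts. Named clusters are the 10 members, their isoforms with at least 10% of counts in a fraction, neighbours by number (mean level on the log2 CPM scale no lower than 1) with the opposite ratio of at least 2-fold, and the most alike non-member. Alternatives were other scalings, no filter, DESeq2 1.42.0, single total RNA libraries, a replicate block and leaving out each unit.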

Additional observations from a re-analysis of the deposited data

How the results depend on the processing

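The counts of members called did not change with DESeq2 size factors in edgeR, without the filter, or with the replicate number as a block. The replicate block gave 0, 0 and 0 calls in total RNA (ob/ob against wild type, high-fat diet against wild type, ob/ob against high-fat diet), 1, 0 and 1 in cytoplasmic IP, 3, 1 and 1 in nuclear IP, and 0 and 0 for the ratio of cytoplasmic IP to total RNA. For that ratio the block was set within each mouse group. Over all clusters it gave 32 calls for the ratio in ob/ob against wild type, against 1 without a block. The labels do not say what a replicate number stands for. Deviations of units with one number correlated at 0.262 to 0.407 in ob/ob and wild type, and at -0.121 to 0.094 on high-fat diet. Because not all were over 0.1, the numbers were not taken as pairs. By library size the calls were 0 in cytoplasmic IP for ob/ob against high-fat diet (249 of all clusters called, 482 with TMM), and in nuclear IP 1 for ob/ob against wild type (590, against 1855 with TMM) and 0 on high-fat diet against wild type (1668, against 726 with TMM). By library size uc008fye.1 turned to -0.20 for cytoplasmic IP over total RNA. With each total RNA library as its own replicate the calls in total RNA were 5 (ob/ob against wild type, where 39.7% of all clusters were called) and 4 (ob/ob against high-fat diet, 33.5%), and for the ratio of cytoplasmic IP to total RNA 4 in ob/ob (6.14%) and 2 on high-fat diet (3.46%) against wild type; these libraries are not independent if they are runs of one RNA. DESeq2 called 3 in total RNA for ob/ob against wild type (uc007iyr.2 higher, uc007lnk.1 and uc009mzi.1 lower; 13.6% of all clusters), 1 for ob/ob against high-fat diet (9.25%), 2 in cytoplasmic IP for high-fat diet against wild type (8.09%), 3 for the ratio in ob/ob against wild type (2.96%), and in nuclear IP 2 for high-fat diet against wild type (10.8%) and 2 for ob/ob against high-fat diet (7.1%). Over all clusters tested, ob/ob against wild type in total RNA gave 244 calls in edgeR, 2104 in DESeq2 and 5777 with single libraries. The cause of these differences was not tested. Leaving out each unit gave 0 to 1 calls in total RNA for ob/ob against wild type, 1 to 2 and 0 to 0 in cytoplasmic IP for ob/ob set against wild type and against high-fat diet, and 1 to 3, 0 to 2 and 0 to 1 in nuclear IP for ob/ob against wild type, high-fat diet against wild type and ob/ob against high-fat diet. With 2 units per group, spread is estimated over all groups, and a lone unit is assumed to vary like the others. Nuclear counts of 86 to 113 for uc007lnk.1 and uc008fxp.1, and 5 to 23 cytoplasmic IgG counts for most members, limit what can be told apart there.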
